A study of Mus musculus with 6 samples.

Results

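The 10 genes described here are ligands, secreted antagonists and Id targets of bone morphogenetic protein (BMP) signalling. They are defined by symbol and not by a threshold on their values, but were chosen with earlier results of these data known. They comprise the ligands *Bmp2*, *Bmp4*, *Bmp5* and *Bmp7*, the antagonists *Nog* and *Chrd*, and the targets *Id1*, *Id2*, *Id3* and *Id4*. A locus was taken as a member when its gene field held one of these symbols. Each symbol was found at 1 of the 24207 loci of the table, and 9 of the 10 genes averaged 1 FPKM or more over the genotypes. RNA-seq had been done on whole male embryos at E9.5, 3 of them *Smchd1*+/+ and 3 *Smchd1*MommeD1/MommeD1. MommeD1 is a nonsense allele of *Smchd1* from a chemical mutagenesis screen, and *Smchd1* encodes a chromatin protein needed for X inactivation and for silencing at some autosomal clusters. Both genotypes have the same strain label, C57Bl6/J x FVB/n, whereas the study's text describes a backcross onto another inbred background for its RNA-seq embryos, and the sources used here do not settle which holds. The table gives 1 FPKM value per genotype, pooled over its embryos, so no spread between embryos is known, no difference here has a replicate check, and no p-value is given.

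BMPs are secreted dimers that bind type I and type II serine/threonine kinase receptors. The receptors phosphorylate Smad1, Smad5 and Smad9, which enter the nucleus with Smad4 and switch on target genes, among which the Id genes are the classic direct ones. Id proteins are helix-loop-helix proteins without a DNA-binding domain, which hold E proteins and so keep proneural and myogenic factors from working. Noggin and chordin bind BMPs outside the cell and block them. In the midgestation embryo BMPs come, for example, from the dorsal ectoderm and roof plate, the heart, the limb buds and the ventral body wall, and noggin and chordin from the notochord and nearby axial tissue.

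FPKM counts the fragments mapped to a gene per kilobase of transcript, scaled to the number of mapped fragments, so that levels can be compared between genes within a genotype. Ratios below are *Smchd1*MommeD1/MommeD1 over *Smchd1*+/+ on the log2 scale with 0.1 FPKM added to each value, which understates the difference of low genes. The targeted gene *Smchd1* (mm10 chromosome 17, 71344415 to 71475343) measured 2.12 FPKM in mutant embryos against 34.0 FPKM in wildtype, 6.23% of the wildtype level. Markers of the tissues of a whole embryo (neural tube, neurons, neural crest, somites, heart, primitive blood, endothelium, visceral endoderm and tail bud) were all at 2.48 FPKM or more in both genotypes, 17 of 17 genes. Of 4 trophoblast markers, *Tpbpa* and *Prl3d1* were listed at 0 in both genotypes and the highest, *Prl3b1*, was at 0.984 FPKM in mutant embryos.

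Of the 9 members averaging 1 FPKM or more, 1 differed by at least 1.5-fold between the genotypes. *Id4* was higher in mutant embryos, and 0 members were lower by that much. Over all 12345 loci at or above that level, 3.54% were at least 1.5-fold higher and 1.46% at least 1.5-fold lower in mutant embryos, and the median log2 ratio was -0.0073. The central 50% of these loci lay between -0.12 and 0.11. *Id1*, *Id2*, *Id3*, *Bmp4*, *Bmp7* and *Nog* had ratios within that central range, and *Bmp2* and *Bmp5* lay below it.

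**Figure D1:**
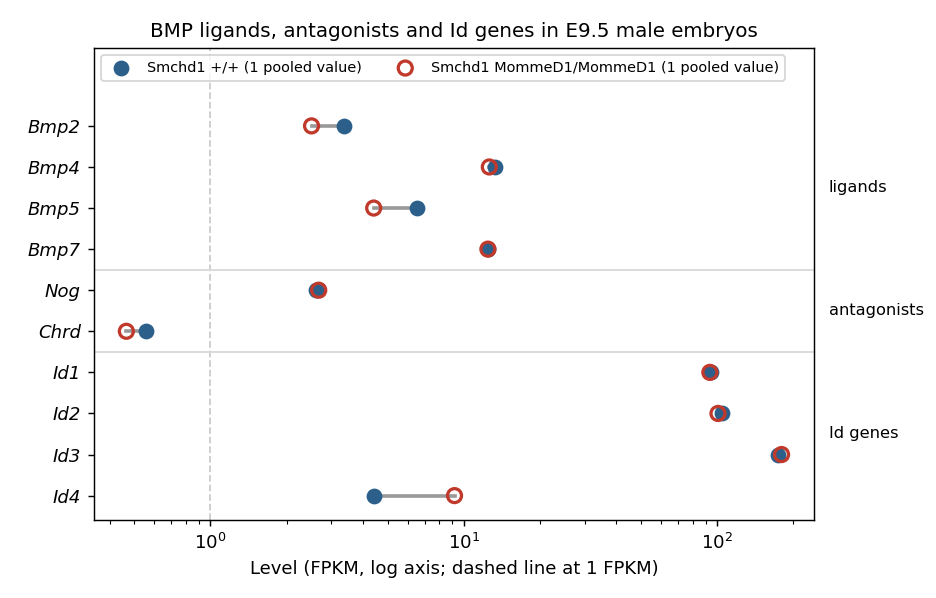
Level of each member in FPKM on a log axis, with a filled circle for the pooled value of *Smchd1*+/+ embryos and an open circle for that of *Smchd1*MommeD1/MommeD1 embryos. The circles lie apart for *Id4* (4.41 and 9.19 FPKM), *Bmp5* (6.55 and 4.41) and *Bmp2* (3.38 and 2.51), while those of *Id1*, *Id2*, *Id3*, *Bmp4*, *Bmp7* and *Nog* nearly coincide.

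The ligands fell into a pair of abundant and a pair of scarcer transcripts. *Bmp4*, a ligand required for mesoderm and for ventral and dorsal patterning, was at 12.6 FPKM in mutant embryos against 13.3 FPKM in wildtype, a log2 ratio of -0.07. Its locus spans chromosome 14 of mm10 from 46379524 to 46390599. *Bmp7*, a ligand used in eye, kidney and skeletal development, lies on chromosome 2 from 172868028 to 172940692 and was at 12.4 and 12.5 FPKM, a log2 ratio of -0.0067. *Bmp4* and *Bmp7* lay close to each other in both genotypes, and their order has no error to be judged by.

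*Bmp5*, whose loss causes the short ear phenotype in mice, had the largest ratio in size of the 4 ligands. It was at 4.41 FPKM in mutant embryos against 6.55 FPKM in wildtype, a log2 ratio of -0.56, which is 1.48-fold lower and falls just short of 1.5-fold. Of 4102 loci within 2-fold of its mean FPKM, 5.66% had a log2 ratio at least as far from 0, and 1.68% were at least as low. The *Bmp5* locus lies on chromosome 9 from 75775328 to 75900354. GENCODE M21 places an antisense gene, *Gm26903*, over 46.7% of the annotated exon bases of *Bmp5*, and because the libraries were nondirectional, reads of these genes cannot be told apart there.

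*Bmp2*, a ligand needed for heart and amnion development, was at 2.51 FPKM in mutant embryos against 3.38 FPKM in wildtype, a log2 ratio of -0.42. It lies on chromosome 2 from 133552302 to 133562885. Differences of this size were more common at its level, since 16.3% of 3301 loci within 2-fold of its mean FPKM were at least as far from 0. All 4 ligands had a ratio below 0, with a median of -0.24, but that of *Bmp7* was 0.00056 when both genotypes were centred on the median locus.

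In sum the 4 ligands stood at 31.96 FPKM in mutant embryos against 35.7 FPKM in wildtype. *Bmp2* and *Bmp5* accounted for most of that difference, with 6.91 FPKM between them in mutant and 9.93 FPKM in wildtype embryos. The share of *Bmp5* in the ligand sum was 13.8% in mutant and 18.4% in wildtype embryos, and that of *Bmp2* was 7.84% and 9.46%. *Bmp4* and *Bmp7* together made up 78.4% and 72.2%. Such shares do not depend on how the genotypes were scaled to each other.

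The antagonists *Nog* and *Chrd* were near or below the level of the scarcer ligands. *Nog*, which encodes noggin, lies on chromosome 11 from 89300638 to 89302559 and was at 2.67 FPKM in mutant embryos against 2.60 FPKM in wildtype, a log2 ratio of 0.04. It lay above *Bmp2* in mutant embryos (2.51 FPKM) and below it in wildtype (3.38 FPKM). *Chrd*, which encodes chordin, was at 0.465 and 0.555 FPKM, under the minimum of 1 FPKM and so in no count. Its log2 ratio was -0.21 with 0.1 FPKM added and -0.09 with 1 FPKM added. The *Chrd* locus, on chromosome 16 from 20724454 to 20742384, also holds *Thpo* on the other strand, at 0.134 and 0.157 FPKM, and 3.82% of the exon bases of *Chrd* are shared with it. The sum of the 4 ligands was 10.2 times the sum of these 2 antagonists in mutant and 11.3 times in wildtype embryos.

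Among the Id genes the levels of *Id1*, *Id2* and *Id3* were high and close between genotypes, whereas *Id4* was low and differed. *Id3* was the most abundant member, at 179 FPKM in mutant embryos against 173 FPKM in wildtype, a log2 ratio of 0.05. *Id2* was at 101 and 104 FPKM (log2 ratio -0.05). *Id1* was at 93.5 and 94.8 FPKM (log2 ratio -0.02). Of the loci within 2-fold of the mean FPKM of *Id3*, 69.0% lay at least as far from 0, as did 71.4% for *Id2* and 88.6% for *Id1*. Most loci of like abundance thus differed by at least as much as these Id genes, which are widely used readouts of BMP signalling.

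*Id4*, which is known for its expression in the developing nervous system, was at 9.19 FPKM in mutant embryos against 4.41 FPKM in wildtype. Its log2 ratio was 1.04, or 2.06-fold higher in mutant embryos. Of 4311 loci within 2-fold of its mean FPKM, 46 (1.07%) had a ratio at least as far from 0 and 29 (0.673%) were at least as high. The *Id4* locus lies on chromosome 13 from 48261106 to 48266028. Antisense and long noncoding genes annotated there, *A330033J07Rik* and *Gm49291*, cover 2.13% and 4.44% of its exon bases.

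**Figure D2:**
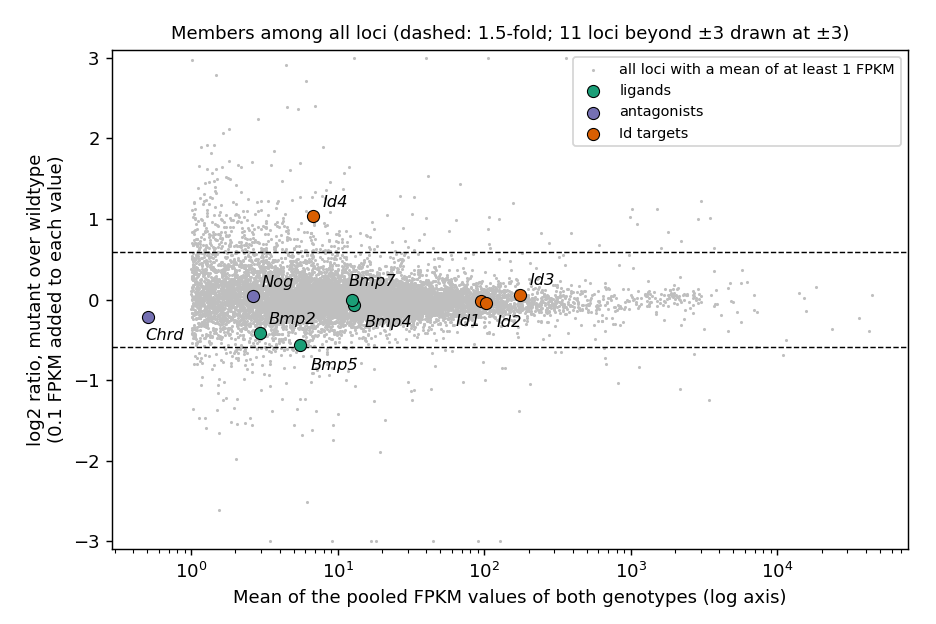
Log2 ratio of *Smchd1*MommeD1/MommeD1 over *Smchd1*+/+ (vertical axis, 0.1 FPKM added) against the mean of both pooled FPKM values (log axis), with grey points for the 12345 loci averaging 1 FPKM or more, coloured points for the members and dashed lines at 1.5-fold. *Id4* at 1.04 is the 1 member outside the lines, and *Bmp5* at -0.56 lies just inside the lower one.

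Related genes can share reads where their sequences are alike, so the coding sequences of the Id genes were compared. In GENCODE M21 they run from 357 bases for *Id3* to 504 bases for *Id1*, and over 6 pairs the aligned coding bases were 69.3% to 73.5% identical. The longest stretch that any pair of the Id transcripts has in common is 17 bases, in the coding sequences of *Id1* and *Id4*, and it is shown because a longer read cannot match both of these transcripts exactly.

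shared by Id1 and Id4: gtggagatcctgcagca

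Between the ligands the longest common stretch in the transcripts compared was 28 bases over 6 pairs, and the coding identity was highest for *Bmp5* and *Bmp7* (71.4%) and for *Bmp2* and *Bmp4* (69.5%), the pairs that are grouped together in the family. *Bmp2* and *Bmp5*, the ligands with the lower ratios, belong to different pairs and were 65.8% identical.

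*Id4* was past 1.5-fold and *Id2* and *Id3* were not, so the 250 bases before the start of each are given here from RefSeq on GRCm38, the assembly of mm10. RefSeq promoters were available for 6 of the 10 members, and not for *Id1*. Capitals mark GGCGCC, a GC-rich site that BMP-activated Smads are known to use, and CAGAC or its reverse complement GTCTG, a Smad-binding element, searched on both strands. *Id4* is at chr13:48260866-48261115 on the plus strand, *Id3* at chr4:136143572-136143821 on the plus strand and *Id2* at chr12:25096093-25096342 on the minus strand.

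Id4: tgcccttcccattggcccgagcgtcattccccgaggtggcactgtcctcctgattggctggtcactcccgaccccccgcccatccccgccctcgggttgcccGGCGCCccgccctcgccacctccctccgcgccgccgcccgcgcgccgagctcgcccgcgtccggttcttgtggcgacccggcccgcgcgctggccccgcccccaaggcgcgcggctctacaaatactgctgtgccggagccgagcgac

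Id3: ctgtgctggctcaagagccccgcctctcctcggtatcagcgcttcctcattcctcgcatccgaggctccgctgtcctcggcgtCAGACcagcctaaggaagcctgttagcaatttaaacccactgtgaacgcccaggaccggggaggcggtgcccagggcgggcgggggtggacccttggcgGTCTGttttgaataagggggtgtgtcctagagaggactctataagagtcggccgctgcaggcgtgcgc

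Id2: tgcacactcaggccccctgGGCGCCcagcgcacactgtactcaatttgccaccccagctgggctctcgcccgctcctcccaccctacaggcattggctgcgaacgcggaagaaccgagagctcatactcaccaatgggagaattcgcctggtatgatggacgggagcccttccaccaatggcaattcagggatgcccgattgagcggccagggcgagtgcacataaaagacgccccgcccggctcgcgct

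GGCGCC occurred once in the *Id4* stretch, 148 bases before the start, and once in that of *Id2*, 231 bases before it, and was not in that of *Id3*. Over all 32851 RefSeq promoters of that length, 9.59% held it. CAGAC occurred at 2 places before *Id3*, 167 and 68 bases from the start, against 42.2% of promoters that held it at least once. The *Id4* stretch held neither CAGAC nor an E-box (CANNTG), the site of the E protein dimers that Id proteins oppose. That of *Id2* also lacked CAGAC but held 1 E-box, and that of *Id3* also lacked an E-box. E-boxes were in 66.2% of promoters. GC content was 75.6% before *Id4* and 62.8% before both *Id3* and *Id2*. Among the other members with a promoter available, GGCGCC was also before *Chrd*, and CAGAC also before *Bmp5*. The part of these sites in the levels was not tested. A match of letters is a description and not a bound site.

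The summed level of the Id genes was 383 FPKM in mutant embryos against 376 FPKM in wildtype. *Id4* contributed 2.40% of that sum in mutant and 1.17% in wildtype embryos, and *Id3* 46.9% and 46.0%. The level of *Id3* was 19.5 times that of *Id4* in mutant and 39.3 times in wildtype embryos. The E proteins that Id proteins bind were at 91.4 and 86.02 FPKM for *Tcf3*, 73.5 and 69.2 FPKM for *Tcf12*, and 20.2 and 18.0 FPKM for *Tcf4*, in mutant and wildtype embryos in that order. Summed Id over summed E protein FPKM, a ratio chosen after the values were seen, was 2.07 in mutant and 2.17 in wildtype embryos.

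**Figure D3:**
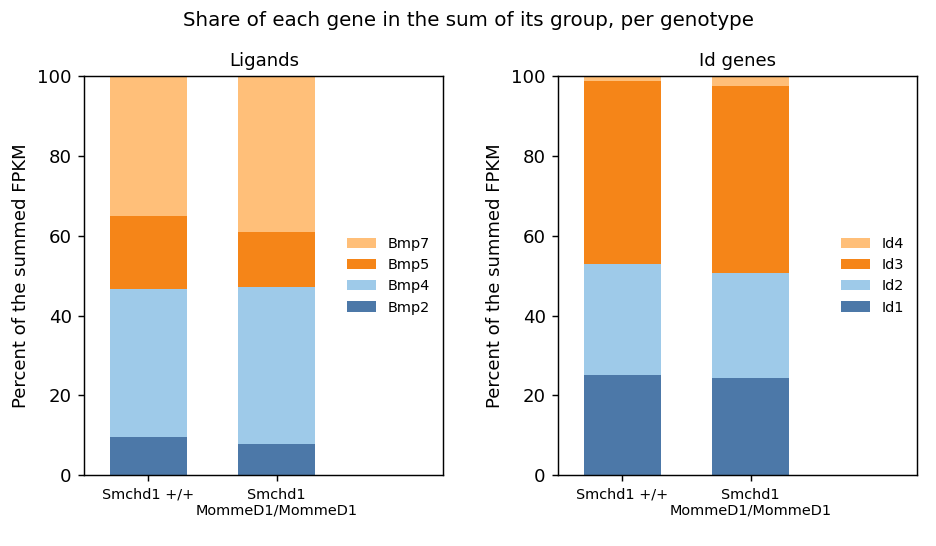
Stacked bars of the percent that each gene contributes to the summed FPKM of the 4 ligands (left) and the 4 Id genes (right), per genotype, each bar from 1 pooled value per gene. The share of *Bmp5* is 18.4% in *Smchd1*+/+ and 13.8% in *Smchd1*MommeD1/MommeD1 embryos, and that of *Id4* is 1.17% and 2.40%.

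The rest of the pathway was read from 7 lists with 63 genes. Of these, 62 were found and 51 averaged 1 FPKM or more. At 1.5-fold, 1 was higher and 1 lower in mutant embryos, 49 were neither, and the median log2 ratio was 0.06, beside -0.0073 over all loci. Those past 1.5-fold were both extracellular antagonists. *Cer1*, a BMP and Nodal antagonist, was at 0.526 FPKM in mutant embryos against 1.51 FPKM in wildtype (log2 ratio -1.37), and so it entered the count only through its wildtype value. *Nbl1*, a member of the same DAN family, was at 3.66 and 2.41 FPKM (log2 ratio 0.59), on the 1.5-fold line itself, and fell below that line when both genotypes were rescaled to the same total.

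Transcripts of receptors and Smads were next. All 11 receptors and co-receptors passed the minimum and none was past 1.5-fold. Of these, 7 had a ratio above 0 and 4 below it, and their median of 0.16 lay above the central 50% of all loci, but was 0.013 with a minimum of 5 FPKM. The most abundant, *Bmpr1a*, the main type I receptor of the early embryo, was at 42.7 FPKM in mutant embryos against 44.98 FPKM in wildtype, and *Bmpr1b*, a type I receptor of narrower expression, at 3.56 and 2.60 FPKM (log2 ratio 0.44). The Smads that BMP receptors phosphorylate were at 12.5 and 12.3 FPKM for *Smad1*, 29.0 and 25.4 FPKM for *Smad5*, and 1.09 and 1.33 FPKM for *Smad9*, with log2 ratios of 0.02, 0.19 and -0.26 in that order. *Smad4* was on the same list but had no locus with a usable value, so it was not analysed here.

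Feedback inhibitors and other target genes of the pathway were read beside the Id genes. *Smad6* and *Smad7*, inhibitory Smads switched on by the pathway, had log2 ratios of 0.06 and -0.07, and *Bambi*, a decoy receptor, -0.01. None of the 8 intracellular and membrane inhibitors was past 1.5-fold (range -0.09 to 0.16), nor was any of the 11 other BMP-responsive genes (range -0.35 to 0.55). Of the latter, *Msx1* and *Msx2*, homeobox genes of BMP-exposed tissue, were at 10 and 11.6 FPKM and at 12.3 and 13.3 FPKM, in mutant and wildtype embryos in that order. *Tbx2*, a T-box gene of limb, heart and eye, had the highest ratio, at 5.93 and 4.03 FPKM (log2 ratio 0.55), and *Hand1*, a factor of heart and ventral mesoderm, the lowest, at 15.8 and 20.1 FPKM (log2 ratio -0.35).

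Among 16 other extracellular modulators, 11 passed the minimum, 8 with a ratio below 0 and 3 above it. *Fst* (follistatin, 7.27 and 10.1 FPKM, log2 ratio -0.47) and *Chrdl1* (chordin-like, 2.37 and 3.35 FPKM, log2 ratio -0.49) were lower in mutant embryos by an amount like that of *Bmp2*. The most abundant, *Fstl1*, was at 65.2 and 68.1 FPKM. Of 10 other BMP-class ligands only 4 passed the minimum, among which *Bmp6* was the most abundant, at 1.75 and 1.48 FPKM, so that *Bmp4* and *Bmp7* were above every other BMP-class ligand of these lists in both genotypes.

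**Figure D4:**
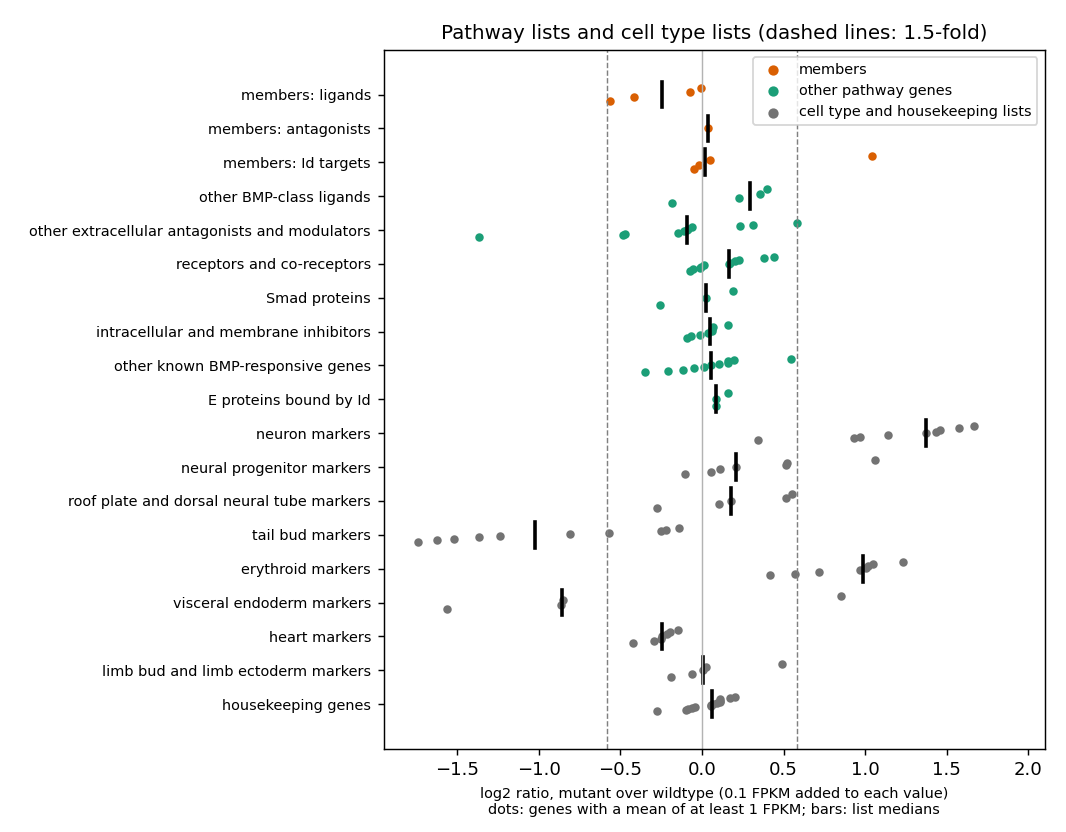
Log2 ratio of *Smchd1*MommeD1/MommeD1 over *Smchd1*+/+ for every gene averaging 1 FPKM or more in the member roles (orange), the other pathway lists (green) and the cell type and housekeeping lists (grey), with a bar at each median and dashed lines at 1.5-fold. Pathway medians lie between -0.24 and 0.29, while the neuron (1.37), erythroid (0.99), tail bud (-1.03) and visceral endoderm (-0.86) medians lie outside the dashed lines. With a minimum of 5 FPKM the visceral endoderm median was -0.00035, the midpoint of *Rbp4* (-0.85) and *Afp* (0.85).

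Markers of several cell types of the embryo also differed between the genotypes, and are given here beside *Id4*, *Bmp2* and *Bmp5*. In bulk RNA of whole embryos, fewer cells of a type and less RNA per cell cannot be told apart. All 9 neuron markers averaging 1 FPKM or more were higher in mutant embryos, 8 of them by at least 1.5-fold, and their summed level was 228 FPKM in mutant embryos against 105 FPKM in wildtype, beside which *Id4* was also higher. Neural progenitor markers summed to 228 and 173 FPKM, with a median log2 ratio of 0.21, and 1 of 7 was past 1.5-fold, *Fabp7*, a radial glial gene, at 43.1 and 20.6 FPKM (log2 ratio 1.06). The others ranged from *Pax6*, a gene of neural tube progenitors, at 14.5 and 15.6 FPKM (log2 ratio -0.10), to *Hes5*, a Notch target, at 26.8 and 18.6 FPKM (log2 ratio 0.52). *Sox2*, the pan-neural progenitor gene, was at 47.1 and 43.6 FPKM (log2 ratio 0.11). The part of neural cells in the *Id4* difference was not tested.

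Lower values of *Bmp2* and *Bmp5* stood beside lower values of tail bud and heart markers. All 10 tail bud markers had a ratio below 0, 6 of them past 1.5-fold, with a summed level of 37.4 FPKM in mutant embryos against 71.8 FPKM in wildtype. All 7 heart markers had a ratio below 0, none past 1.5-fold, with sums of 834 and 1026 FPKM and a median log2 ratio of -0.24. Limb markers had a median of 0.0082, or 0.25 with a minimum of 5 FPKM. Erythroid markers summed to 12697 and 6012 FPKM, with 6 of 8 past 1.5-fold and higher in mutant embryos. Of 4 visceral endoderm markers that passed the minimum, 3 were past 1.5-fold and lower and *Afp* was past it and higher, and their sums were 25.3 and 30.5 FPKM. Their median was -0.86. With a minimum of 5 FPKM it was -0.00035, but only *Rbp4* (log2 ratio -0.85) and *Afp* (0.85) then remained, and they went opposite ways. Of 14 housekeeping genes, none was past 1.5-fold (median 0.06). The part of these cell types in the ligand values was not tested.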

How the data were processed

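The deposited table holds FPKM values that the authors made with TopHat2 2.0.6, Bowtie2 2.0.2 and Cufflinks and Cuffdiff 2.0.2 on mm10, per the submitters' processing notes, with 1 value per genotype pooled over 3 embryos. The mutant and wildtype columns are coded in the file and were read from the study's own copy of the table. With no read counts in use, the depth of the embryos is unknown and intervals were not computed. The authors' own fold change, test statistic, p-value, q-value and significance columns were not used. The 135 loci marked as failed or too deep were left out.

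Log2 ratios were computed here with 0.1 FPKM added. Counts cover loci averaging 1 FPKM or more and differing by at least 1.5-fold. Named genes were all members, list genes past 1.5-fold, the most abundant of a list, and further list genes chosen after their values were seen. Members and lists were chosen with earlier results of these data known. Locus starts were counted from 1. Promoters came from RefSeq (GRCm38.p6) and transcripts from GENCODE M21. Median centring and the 1.5-fold call were tested on simulated data with planted changes well past 1.5-fold, and the other steps were not. Alternatives covered pseudocount, filter, fold and scaling. Python 3.11.15, numpy 2.4.6, pandas 2.3.3, biopython 1.88 and matplotlib 3.10.9 were used.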

Additional observations from a re-analysis of the deposited data

How the results depend on the processing

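Leaving out each embryo was not possible, because each value is pooled over its genotype. No paired analysis was possible because no value per embryo was used. The log2 ratio of *Id4* was between 0.91 and 1.06 and that of *Bmp5* between -0.58 and -0.48 over 5 pseudocounts and scalings, and of 50 such member ratios 48 stayed within 0.1 of the reported value and on the same side of 1.5-fold, with 1 change of sign, that of *Bmp7*. The others were *Id4* (0.91) and *Chrd* (-0.09) with a pseudocount of 1 FPKM.

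The member counts changed in 1 setting, a lower log2 threshold of 0.32, at which 2 members, *Bmp2* and *Bmp5*, were lower. With a minimum of 5 FPKM the ligand median was -0.0732, without *Bmp2*, and with a minimum of 0.1 FPKM or none the antagonist median was -0.0866, since *Chrd* then entered. Pathway genes higher and lower numbered 2 and 2 with a minimum of 0.1 FPKM or none, 0 and 0 with 5 FPKM, and 6 and 4 at the lower threshold. None was higher (0) with a pseudocount of 1 FPKM, after rescaling to the same total, or at 2-fold. Loci higher and lower numbered 252 and 109 with a pseudocount of 1 FPKM, 1083 and 478 with a minimum of 0.1 FPKM, 133 and 78 with 5 FPKM, 1240 and 586 with no minimum, 122 and 62 at 2-fold, and 1098 and 615 at the lower threshold. These follow from the settings themselves. Of 127 values for medians of the other lists, 111 stayed within 0.1 and on the same side of 1.5-fold. The other 16 concerned 7 lists. With a minimum of 5 FPKM the visceral endoderm median was -0.00035, no longer past 1.5-fold, from *Rbp4* and *Afp* alone, which went opposite ways. The medians were then 0.53 for roof plate, 0.25 for limb, 0.013 for receptors and -1.24 for tail bud markers. With a minimum of 0.1 FPKM they were -1.26 for visceral endoderm, 0.35 for roof plate and 1.26 for neuron markers, and with none -1.07, 0.35 and 1.26, and 0.098 for other BMP-class ligands. With a pseudocount of 1 FPKM they were 0.19 for other BMP-class ligands, 1.254 for neuron, -0.79 for tail bud and -0.70 for visceral endoderm markers. Share ratios without the most abundant gene stayed within 0.1 on the log2 scale.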

Other observations

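Some less abundant BMP-class ligands, chosen after their values were seen, can be set beside markers of the tissue each is known from. *Bmp10*, a ligand of the developing heart wall, was at 1.002 FPKM in mutant embryos against 1.15 FPKM in wildtype, a log2 ratio of -0.18, beside a median of -0.24 over 7 heart markers. *Gdf7*, a ligand of the roof plate, was at 1.61 and 1.19 FPKM, a log2 ratio of 0.40. Roof plate and dorsal neural tube markers had a median of 0.18 over 5 genes (0.35 to 0.53 under other minimum levels) and went both ways, with *Lmx1a*, a roof plate gene, at 0.18, *Wnt3a* at -0.27 and *Zic1* at 0.51. *Bmp10* averaged 1.08 FPKM, near the minimum. *Bmp6* (log2 ratio 0.23) and *Gdf6* (0.36) also passed the minimum and were not set beside markers. Nor were the more abundant *Bmp4* (log2 ratio -0.07) and *Bmp7* (-0.0067). The part of these tissues in the ligand values was not tested.

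Under the minimum of 1 FPKM, a further ligand had a larger ratio that enters no count. *Bmp3*, a BMP-class ligand that opposes other BMPs, was at 0.568 FPKM in mutant embryos against 1.32 FPKM in wildtype (log2 ratio -1.09). This gene was chosen after its values were seen.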
